A study of Homo sapiens with 18 samples.

Results

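Chromatin accessibility was examined at 10 genes of the Hippo pathway and its transcriptional output: the DNA-binding factors TEAD1, TEAD3 and TEAD4, the coactivator WWTR1 (the gene of TAZ), the TEAD-binding cofactor VGLL4, the kinase LATS2, the scaffold protein AMOTL2, and the target genes CCN1, CCN2 and ANKRD1. Members were the regions of the accessibility table that overlapped the body of one of these genes extended by 20 kb on both sides (GENCODE on the GRCh37/hg19 build). The rule gave 84 of 115087 regions. No measured value entered the rule, but the genes were chosen with earlier results of these data known. TEAD1 held 21 of them, WWTR1 17, AMOTL2 and LATS2 9 each, VGLL4 8, TEAD4 5, CCN1, CCN2 and ANKRD1 4 each, and TEAD3 3.

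Open chromatin was mapped with ATAC-seq (a transposase inserts sequencing adapters where DNA is accessible) in the human head and neck squamous carcinoma (HNSCC) cell lines SCC1, SCC6 and SCC25. Each line received cetuximab, an antibody that blocks the epidermal growth factor receptor, at 100 nM daily, or PBS alone as the untreated control, for 5 days. Each of the 6 groups had 3 libraries except SCC1 PBS, with 2 (replicates 1 and 3; replicate 2 was not analysed here). Nothing in the labels says that replicates came from separate cultures, so p-values measure the spread between these libraries, which may be technical, and each line is a single model of the disease.

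The Hippo pathway is a kinase cascade that restrains tissue growth. Its upper kinases (STK3 and STK4) activate LATS1 and LATS2, which phosphorylate the coactivators YAP and TAZ and so hold them in the cytoplasm. When the cascade is quiet, YAP and TAZ enter the nucleus and bind TEAD factors, which recognise the sequence GGAATG and often sit beside AP-1 sites at distal enhancers. CCN1 and CCN2 (secreted matrix proteins) and ANKRD1 (a nuclear ankyrin repeat protein) are the standard readouts of this activity. LATS2 and AMOTL2 are targets that also restrain the pathway, and VGLL4 competes with YAP and TAZ for TEAD. In HNSCC the pathway is known for the loss of FAT1 and the gain of YAP1.

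Reads in regions ranged from 2194851 to 4171650 per library in SCC1, from 4098164 to 15017130 in SCC6 and from 2513828 to 13408698 in SCC25, and 7.14% to 28.83% of regions sat at the lowest possible value of a library. The values given below are the deposited signal, the reads in a region multiplied by 1 scaling step per library, in which a region without reads was set to 1 read; 1 read was worth 0.331 to 1.946 units of signal. All 6 squamous epithelial markers searched (TP63, KRT5, KRT14, KRT17, CDH1 and EPCAM) had a promoter region in the table. None of the 3 leukocyte markers had one, nor had CDH5 of endothelium, and of the 3 fibroblast markers COL1A2 and DCN did. The KRT14 promoter was near empty in SCC6, with a mean signal of 1.74 against 57.7 in SCC1 and 34.0 in SCC25, and so was the DCN promoter in each line (0.962 to 2.69). The COL1A2 promoter was open to some degree (43.9 in SCC1, 8.48 in SCC6 and 28.4 in SCC25), and its part in the results was not tested.

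Of the 84 regions, 16 lay within 1 kb of an annotated start site of their member gene, 2 lay at the promoter of a neighbour (RPL10A beside TEAD3 and COMMD2 beside WWTR1), and 66 lay at neither. Regions were numbered along each gene from its upstream side, so that TEAD1_r19 is the 19th of TEAD1. They were 107 to 1597 bases wide (median 360.5). A peak had been called in every one of the 17 libraries at 8 of them. Divided by width, the mean signal of the strongest promoter region of each gene ran from 127.9 per kb at TEAD4 to 310.8 per kb at AMOTL2, and the highest value of any member was 503.3 per kb, in the fifth intron of AMOTL2.

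The sequences of 7 of these regions are given because the results turn on them: 4 regions that changed with cetuximab, 1 that separated SCC25 from the other lines, and the sequence just upstream of CCN2 and ANKRD1, the classical TEAD-driven promoters. All are from GRCh37. Capitals mark GGAATG or its reverse complement CATTCC (the TEAD core site) and TGACTCA or its reverse complement TGAGTCA (the AP-1 site), searched on both strands; the end of GGAATG can overlap the start of TGACTCA, which did not occur here. Where a region was wider than the longest stretch printed, the part with the most matches is shown, and for CCN2 and ANKRD1 the part next to the start site. In order they are chr3:11602890-11603169 (plus strand), chr11:12915468-12915767 (plus), chr1:86064713-86065012 (plus), chr11:12873397-12873675 (plus), chr3:134071152-134071451 (plus), chr6:132272513-132272772 (minus) and chr10:92680876-92681175 (minus).
VGLL4 r7: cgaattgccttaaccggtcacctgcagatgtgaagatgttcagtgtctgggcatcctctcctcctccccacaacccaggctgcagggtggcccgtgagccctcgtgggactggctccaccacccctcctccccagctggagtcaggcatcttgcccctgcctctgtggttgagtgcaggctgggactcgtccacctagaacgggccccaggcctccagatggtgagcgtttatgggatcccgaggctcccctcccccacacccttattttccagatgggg
TEAD1 r19: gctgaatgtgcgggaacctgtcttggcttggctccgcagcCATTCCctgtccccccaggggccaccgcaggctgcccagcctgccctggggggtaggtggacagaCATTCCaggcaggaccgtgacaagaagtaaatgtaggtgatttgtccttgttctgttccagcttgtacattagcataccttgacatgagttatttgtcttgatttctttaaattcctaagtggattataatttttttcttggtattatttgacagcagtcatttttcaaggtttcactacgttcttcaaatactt
CCN1 r4: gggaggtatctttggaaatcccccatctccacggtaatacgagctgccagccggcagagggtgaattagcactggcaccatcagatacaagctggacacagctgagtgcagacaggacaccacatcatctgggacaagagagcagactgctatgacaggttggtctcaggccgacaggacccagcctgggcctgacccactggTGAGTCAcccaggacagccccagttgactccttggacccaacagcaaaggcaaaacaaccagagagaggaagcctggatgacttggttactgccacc
TEAD1 r18: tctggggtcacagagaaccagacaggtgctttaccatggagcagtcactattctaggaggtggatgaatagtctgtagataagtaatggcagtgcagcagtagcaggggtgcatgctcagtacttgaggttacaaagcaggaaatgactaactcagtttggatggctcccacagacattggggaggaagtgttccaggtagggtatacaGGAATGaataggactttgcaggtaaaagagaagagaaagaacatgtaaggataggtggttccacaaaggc
AMOTL2 r5: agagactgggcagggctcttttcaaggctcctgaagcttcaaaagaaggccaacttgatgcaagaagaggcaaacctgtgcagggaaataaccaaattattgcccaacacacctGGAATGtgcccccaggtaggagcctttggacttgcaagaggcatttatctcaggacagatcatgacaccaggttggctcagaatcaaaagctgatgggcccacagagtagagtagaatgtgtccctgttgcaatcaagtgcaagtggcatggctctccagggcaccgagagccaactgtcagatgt
CCN2 r3: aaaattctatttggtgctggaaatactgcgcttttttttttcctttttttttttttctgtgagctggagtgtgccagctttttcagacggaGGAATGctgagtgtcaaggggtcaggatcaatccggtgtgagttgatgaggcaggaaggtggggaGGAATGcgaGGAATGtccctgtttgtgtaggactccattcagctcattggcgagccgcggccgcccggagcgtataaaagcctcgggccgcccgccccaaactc
ANKRD1 r3: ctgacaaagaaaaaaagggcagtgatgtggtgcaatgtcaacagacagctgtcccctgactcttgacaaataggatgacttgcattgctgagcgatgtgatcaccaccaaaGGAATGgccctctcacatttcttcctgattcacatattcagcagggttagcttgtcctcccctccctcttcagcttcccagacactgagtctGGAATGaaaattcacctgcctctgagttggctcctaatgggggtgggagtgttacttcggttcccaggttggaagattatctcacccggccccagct

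The CCN2 promoter held 3 TEAD core sites in 260 bases, the ANKRD1 promoter 2, TEAD1_r19 2, and TEAD1_r18 and AMOTL2_r5 1 each. CCN1_r4 held an AP-1 site and no TEAD site, and VGLL4_r7 held neither. Among regions whose width was within 10% of theirs, a TEAD core site was present in 43.5% for CCN2_r3, 30.5% for ANKRD1_r3, 32.3% for TEAD1_r19 and 26.5% for VGLL4_r7, and an AP-1 site in 35.1% for CCN1_r4. Over the members, 30 of 84 regions (35.7%) held a TEAD core site against 23.3% of all 115087 regions, and 26.2% held an AP-1 site against 26.6%. At the 18 member regions that were promoters the shares were 55.6% for TEAD and 27.8% for AP-1, against 21.4% and 13.9% of all promoter regions. A match of letters is a description of the sequence, not a binding site.

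The first question was whether cetuximab changed accessibility at these genes in each line. In SCC1, 79 member regions were tested and 8 were called (10.1%; 11.1% of all regions tested were called), 4 higher and 4 lower with cetuximab (4.58% and 6.56% of all regions). In SCC6, 15 of 76 were called (19.7%; 27.5% of all regions), 9 higher and 6 lower (16.9% and 10.6% of all regions). In SCC25 none of 77 was called in either direction by limma, edgeR or DESeq2 (0.315% of all regions by limma, 0.0405% higher and 0.275% lower), and 7 had an unadjusted limma p under 0.05. DESeq2 gave no adjusted p to 20078 of 86298 regions in SCC1 and 31796 of 86315 in SCC25, so it could not call any member among these. The share of members called was close to that of the whole table in SCC1 and lower in SCC6. In SCC25 so few regions of the whole table were called that none among 77 says little. No difference in share was tested. In bulk libraries, fewer cells with an open region and a less open region in every cell cannot be told apart. Members had median log2 changes of -0.16, 0.03 and -0.05 in SCC1, SCC6 and SCC25, against -0.09, 0.11 and -0.08 over all regions tested. When every library was centred on its own median, the median of all regions went from -0.09 to 0.10 in SCC1 and from 0.11 to -0.06 in SCC6; the calls were then 7 higher and 2 lower in SCC1, and 7 higher and 16 lower in SCC6. Quantile normalisation gave 9 higher and 10 lower in SCC6. Directions below are on the deposited scale. The counts in SCC1 rested on single libraries: without PBS replicate 1 they were 0 higher and 1 lower, without PBS replicate 3 they were 1 and 2, and without cetuximab replicate 1 or 3 there were 2 higher. In SCC6 the lower calls were 2 without cetuximab replicate 2 or without PBS replicate 2. TEAD3_r1, the TEAD3 promoter, was the only region called in both SCC1 and SCC6, and its directions were opposite.

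**Figure D1:**
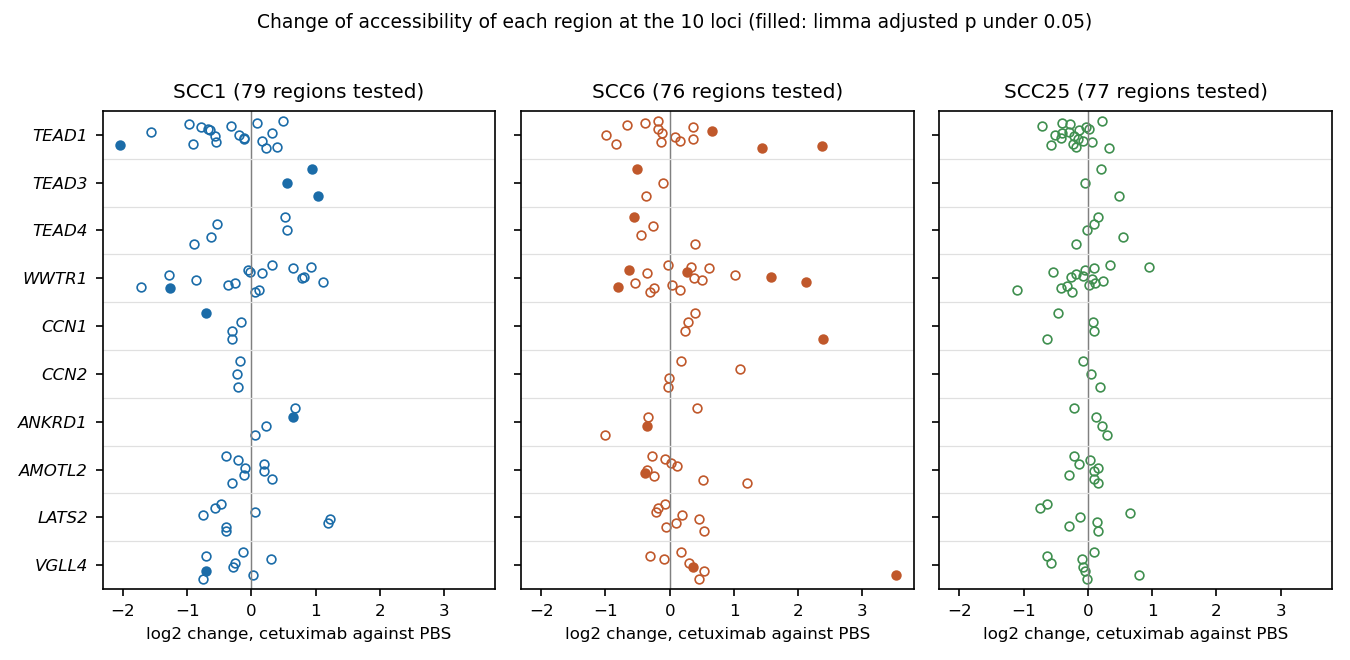
Log2 change (cetuximab against PBS, x axis) of each tested member region, by gene (y axis) and line (panels); filled points are called (limma adjusted p under 0.05). Filled points number 8 in SCC1, 15 in SCC6 and 0 in SCC25; the largest are VGLL4_r7 (3.52) in SCC6 and TEAD1_r18 (-2.04) in SCC1, and all 3 TEAD3 regions lie to the right in SCC1.

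Among the TEAD factors, TEAD3 had the most calls in SCC1. Its 3 regions were all called higher there, against 1 called lower in SCC6 and 0 in SCC25 (1 had an unadjusted limma p under 0.05), and the change differed between lines at each (limma interaction adjusted p = 0.00478, 0.0346 and 0.00225). With the trend of the signal on GC content removed from each library, this difference between lines was lost at TEAD3_r1 (limma adjusted p = 0.107) and at TEAD3_r2, where it passed in 17 of 27 alternative settings (highest adjusted p = 0.175). At the promoter TEAD3_r1 (chr6:35464885-35465365, just upstream of the first exon) the signal in SCC1 was 116, 105 and 146 with cetuximab and 70.3 and 55.8 with PBS, a log2 change of 0.94 (SE 0.26, adjusted p = 0.00676 by limma). In SCC6 it was 56.6, 56.6 and 76.4 with cetuximab and 84.6, 108 and 78.3 with PBS, a change of -0.51 (SE 0.20, adjusted p = 0.0477 by limma). The treated and untreated libraries did not overlap in either line, and they lay in opposite order. In SCC25 the libraries of the groups overlapped (66.1, 71.0 and 83.2 against 68.6, 67.1 and 56.0), with a change of 0.20 (SE 0.20, adjusted p = 0.709 by limma). The call in SCC6 was held in 9 of 17 alternative settings and the call in SCC1 in 12 of 16, and the latter was lost with the GC trend removed, without cetuximab replicate 3 or without either PBS library.

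TEAD3_r2 (chr6:35452750-35454346, over coding sequence of the second exon) had signals of 519, 356 and 532 with cetuximab and 321 and 309 with PBS in SCC1, a log2 change of 0.55 (SE 0.15, adjusted p = 0.00766 by limma). The downstream TEAD3_r3 (chr6:35435910-35436560) is the promoter of RPL10A, a ribosomal protein gene, and changed more: 154, 142 and 150.2 with cetuximab against 69.0 and 74.8 with PBS in SCC1, a log2 change of 1.04 (SE 0.24, adjusted p = 0.00095 by limma). All treated SCC1 libraries thus stood above both untreated ones at each of the 3 regions. The call at TEAD3_r2 was lost with the GC trend removed, without cetuximab replicate 1 or 3 or without either PBS library, and that at TEAD3_r3 without PBS replicate 1 (highest adjusted p = 0.161 and 0.0713). In SCC6 the RPL10A promoter gave 63.6, 61.3 and 78.7 with cetuximab and 93.0, 81.0 and 88.1 with PBS, a change of -0.37 (SE 0.19, adjusted p = 0.143 by limma), and the groups did not overlap. These regions are rich in G and C (82.5%, 64.4% and 67.7% of bases), and with the GC trend removed the median of their changes in SCC1 went from 0.94 to 0.57. The call that was kept there was TEAD3_r3, the RPL10A promoter, so neither region of TEAD3 itself was then called. The part of base composition in the remainder was not tested.

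TEAD4 was called at 1 of its 4 regions tested in SCC6, the promoter TEAD4_r1 (chr12:3067906-3069296, over exons 1 and 2), and by limma at none of its 5 in SCC1 or SCC25 (1 and 0 had an unadjusted p under 0.05; edgeR called 1 higher in SCC1 and DESeq2 none). The signal in SCC6 was 146, 135 and 166 with cetuximab and 204, 195 and 263 with PBS, a log2 change of -0.56 (SE 0.13, adjusted p = 0.000795 by limma). Every treated library lay below every untreated one, and the call was held in all 17 alternative settings. In SCC1 the order was the other way, 185, 164 and 230.1 with cetuximab and 149.6 and 118 with PBS. The change there was 0.52 (SE 0.21, adjusted p = 0.0921 by limma), which did not pass the test but passed in 5 of 16 alternatives. In SCC25 the change was 0.16 (SE 0.14, adjusted p = 0.657 by limma). The effect differed between lines (limma interaction adjusted p = 0.00524, and 0.117 with the GC trend removed).

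The TEAD1 promoter TEAD1_r1 (chr11:12695591-12696181, over the first exon, with a peak in all 17 libraries) was not called in any line, with log2 changes of 0.49 (SE 0.23, adjusted p = 0.169 by limma) in SCC1, -0.19 (SE 0.16, adjusted p = 0.383 by limma) in SCC6 and 0.22 (SE 0.16, adjusted p = 0.594 by limma) in SCC25. Its signal in SCC1 was 146, 115 and 175 with cetuximab and 93.7 and 111 with PBS, and in SCC6 119, 91.9 and 99.2 with cetuximab and 112, 112 and 128 with PBS. The groups were apart in SCC1 and overlapped in SCC6. The SCC1 change passed in 3 of 16 alternatives (lowest adjusted p = 0.0288 by limma), among them median centring, and was 0.12 with the GC trend removed. At all 3 TEAD promoters the change was lowest in SCC6 and highest in SCC1, an order found at 13 of the 71 member regions tested in each line. The calls at TEAD1 were all in introns, 1 lower in SCC1 and 3 higher in SCC6.

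TEAD1_r18 (chr11:12873397-12873675, in the third intron) fell in SCC1, from 49.4 and 32.4 with PBS to 12.7, 11.7 and 4.69 with cetuximab, a log2 change of -2.04 (SE 0.56, adjusted p = 0.00659 by limma). The groups did not overlap, and the reads behind these values were 38 and 29 against 10, 6 and 3. The call was held in 14 of 16 alternatives and lost with either PBS library left out (highest adjusted p = 0.323). It was also lower over all lines together, with a log2 change of -1.09 (SE 0.29, adjusted p = 0.0153 by limma). The signal was 7.07, 4.64 and 7.27 against 13.3, 6.69 and 18.5 in SCC6 and 18.3, 32.6 and 21.3 against 41.1, 29.6 and 35.6 in SCC25, cetuximab first, with overlap in both.

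TEAD1_r19 (chr11:12915422-12915814, in the ninth intron), which carries a pair of TEAD core sites, rose in SCC6. Its signal was 46.5, 52.0 and 72.4 with cetuximab and 10.9, 10.7 and 8.70 with PBS, a log2 change of 2.37 (SE 0.31, adjusted p = 4.21e-08 by limma). Reads were 46, 56 and 219 against 9, 16 and 8, a peak was called in 3 of 3 treated and 0 of 3 untreated libraries, and the call was held in all 17 alternatives. The changes in SCC1, 0.39 (SE 0.40, adjusted p = 0.605 by limma), and SCC25, -0.19 (SE 0.39, adjusted p = 0.878 by limma), did not pass, and the effect differed between lines (limma interaction adjusted p = 0.00235). Untreated SCC6 was the low group here: its libraries lay below every library of the other lines. TEAD1_r20 lay in the same intron, 226.3 kb from the start of the gene against 219.6 kb, and gave 36.4, 46.4 and 35.0 with cetuximab and 25.4, 18.1 and 5.44 with PBS (log2 change 1.43, SE 0.37, adjusted p = 0.00284 by limma), and TEAD1_r10 in the second intron gave 207, 188 and 200.01 and 133, 142 and 103 (log2 change 0.66, SE 0.13, adjusted p = 0.000162 by limma). Neither overlapped between the groups.

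WWTR1 encodes TAZ, the YAP paralogue that carries the pathway's signal to TEAD. Its main promoter WWTR1_r5 (chr3:149375403-149376591, over the first exon) was among the most accessible members and moved little. The signal in SCC6 was 407, 429.8 and 387 with cetuximab and 308, 321 and 389 with PBS, a log2 change of 0.27 (SE 0.09, adjusted p = 0.0214 by limma). The groups overlapped by 1 library, and the call was held in 10 of 17 alternatives. The changes in SCC1 (-0.03, limma adjusted p = 0.943) and SCC25 (-0.04, limma adjusted p = 0.911) changed sign under other scalings.

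The alternative promoter WWTR1_r15 (chr3:149293874-149294297, in the second intron, over an exon of another transcript) fell in SCC1, from 208 and 176 with PBS to 102, 60.3 and 79.8 with cetuximab, a log2 change of -1.27 (SE 0.24, adjusted p = 2.95e-05 by limma) held in all 16 alternatives. Its signal was 88.9, 85.4 and 82.0 against 91.8, 93.0 and 122 in SCC6 and 74.5, 87.9 and 104 against 119, 126 and 109 in SCC25, cetuximab first. All 3 treated libraries lay below all untreated ones in each line. The change over all lines was -0.60 (SE 0.14, adjusted p = 0.00908 by limma), and the size differed between lines (limma interaction adjusted p = 0.0258). The latter passed in 22 of 27 alternatives, and those that lost it include median centring, removal of the GC trend, and leaving out SCC1 cetuximab replicate 2 or SCC1 PBS replicate 1 (highest adjusted p = 0.153). WWTR1_r14, in the same intron 77.7 kb from the start against 81.7 kb, was also lower over all lines, with a log2 change of -0.90 (SE 0.23, adjusted p = 0.014 by limma), and in SCC6, where it gave 46.5, 26.0 and 35.7 with cetuximab and 64.0, 66.9 and 56.6 with PBS (log2 change -0.81, SE 0.24, adjusted p = 0.00996 by limma).

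Other intronic elements of WWTR1 opened. WWTR1_r11 (chr3:149314038-149314217) was higher over all lines, with a log2 change of 1.16 (SE 0.31, adjusted p = 0.0174 by limma), and in SCC6 its signal was 14.1, 13.0 and 19.8 with cetuximab and 1.21, 6.69 and 2.1752 with PBS (log2 change 2.12, SE 0.59, adjusted p = 0.00524 by limma). In SCC1 it was 22.8, 25.3 and 12.5 against 9.11 and 7.82, and in SCC25 16.9, 16.9 and 17.7 against 18.1, 10.1 and 16.1, so that the groups were apart in SCC1 and SCC6 and overlapped in SCC25. The reads in untreated SCC6 were 1, 10 and 2, so this log2 change depends on the pseudocount of 1 added to the signal. WWTR1_r8 rose in SCC6, from 15.7, 16.1 and 6.53 to 35.4, 37.1 and 39.7 (log2 change 1.57, SE 0.34, adjusted p = 0.000325 by limma), while WWTR1_r4 fell there from 70.1, 82.3 and 76.1 to 48.5, 46.4 and 50.9 (log2 change -0.64, SE 0.21, adjusted p = 0.0193 by limma). WWTR1 thus had 3 higher and 2 lower calls among 17 regions tested in SCC6 (29.4%, close to the 27.5% of all regions). Neither lower call, WWTR1_r4 or WWTR1_r14, was held with all libraries in 1 fit.

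VGLL4, the competitor of YAP and TAZ for TEAD, held the largest change of any member. VGLL4_r7 (chr3:11602890-11603169, in the third intron) had signals of 30.3, 25.1 and 30.4 with cetuximab and 1.21, 2.68 and 1.09 with PBS in SCC6, a log2 change of 3.52 (SE 0.54, adjusted p = 1.35e-06 by limma). Behind these were 30, 27 and 92 reads against 1, 4 and 1, where a count of 1 can also stand for no read. A peak was called in 2 of 3 treated and 0 of 3 untreated libraries. The size rests on a near-empty untreated group and ran from 2.34 to 3.89 over the 16 alternatives, all of which kept the call. In SCC1 the signal was 62.2, 25.3 and 39.1 with cetuximab and 40.3 and 38.0 with PBS (log2 change 0.02, SE 0.37, adjusted p = 0.987 by limma), and in SCC25 30.9, 32.6 and 37.2 and 18.1, 28.8 and 12.7 (log2 change 0.80, SE 0.33, adjusted p = 0.283 by limma). The signal of treated SCC6 lay within the range of the other lines. A peak was called there in 2 of 2 untreated and 0 of 3 treated SCC1 libraries, and in 1 of 3 untreated and 0 of 3 treated SCC25 libraries, so that a similar signal did not always come with a peak. The difference between lines had the smallest interaction p of the members (limma adjusted p = 0.000246), and over all lines the change was 1.55 (SE 0.38, adjusted p = 0.00991 by limma).

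The VGLL4 promoter with the highest signal, VGLL4_r1 (chr3:11811954-11812890), was not called in any line, with changes of -0.13, 0.18 and 0.09 in SCC1, SCC6 and SCC25 (limma adjusted p = 0.68, 0.34 and 0.845). A promoter of shorter transcripts, VGLL4_r6 (chr3:11609589-11610358), gave 88.9, 83.7 and 86.1 with cetuximab and 165 and 119 with PBS in SCC1 (log2 change -0.70, SE 0.25, adjusted p = 0.0463 by limma), and 65.7, 70.6 and 51.9 against 39.9, 48.2 and 40.2 in SCC6 (log2 change 0.54, SE 0.23, adjusted p = 0.0735 by limma). The groups were apart in both lines and in opposite order (limma interaction adjusted p = 0.0318, passed in 20 of 27 alternatives), and the SCC1 call was held in 8 of 16 alternatives.

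**Figure D2:**
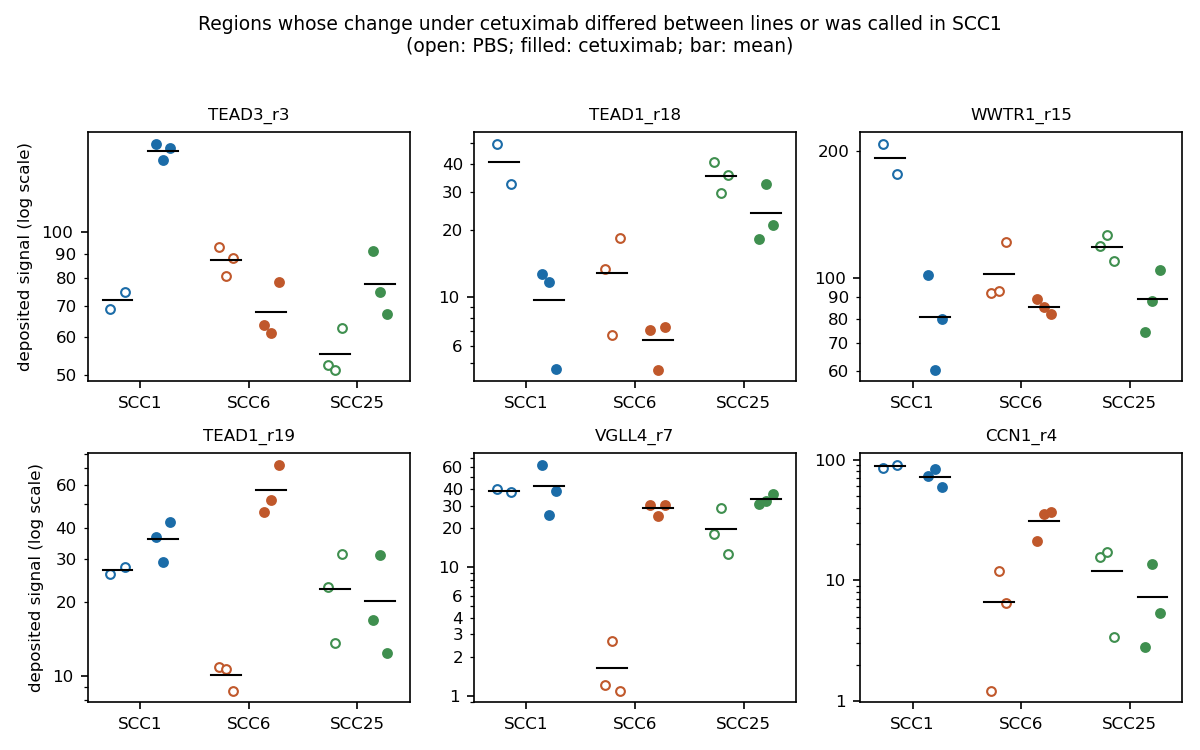
Deposited signal (y axis, log scale) of 6 regions in each library of SCC1, SCC6 and SCC25 (x axis); open points are PBS, filled points cetuximab, and bars group means. At VGLL4_r7 the untreated SCC6 libraries lie between 1.09 and 2.68, below all others, and at WWTR1_r15 treated libraries lie below untreated ones in each line.

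The kinase LATS2 and the scaffold AMOTL2 are both targets that restrain the pathway. Limma called 0 of 8 LATS2 regions and 1 of 9 AMOTL2 regions in SCC6, against 27.5% of all regions. This difference in share was not tested. Neither gene had a call among its 8 regions tested in SCC1, where limma called 11.1% of all regions. With so few regions this says little, as does the lack of calls in SCC25 (0.315% of all regions). None of the LATS2 regions was called in any line by limma, edgeR or DESeq2 (limma tested 8 in SCC1, 8 in SCC6 and 7 in SCC25), and 1, in SCC25, had an unadjusted limma p under 0.05. The LATS2 promoter LATS2_r3 (chr13:21635535-21635981, over the first exon) gave 84.4, 63.2 and 58.4 with cetuximab and 43.3, 48.3 and 37.3 with PBS in SCC25, groups that did not overlap, but its log2 change of 0.65 (SE 0.22, adjusted p = 0.194 by limma) did not pass. In SCC1 and SCC6 it was 0.06 and -0.22 (limma adjusted p = 0.916 and 0.332).

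At AMOTL2 1 region was called, AMOTL2_r6 (chr3:134069715-134070132, downstream of the gene), with 226, 231 and 219 with cetuximab and 303, 268 and 315 with PBS in SCC6, a log2 change of -0.39 (SE 0.10, adjusted p = 0.0036 by limma). All treated libraries were below the untreated ones, and the call was held in 16 of 17 alternatives. The AMOTL2 promoter AMOTL2_r2 (chr3:134093211-134094325, over the first exon) changed by -0.21, -0.07 and 0.03 in SCC1, SCC6 and SCC25 (limma adjusted p = 0.397, 0.539 and 0.947). Its signal in SCC6, 365, 333 and 378 with cetuximab and 381, 380.1 and 371 with PBS, overlapped between the groups.

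The standard target genes did not move as a group. The CCN2 promoter CCN2_r3 (chr6:132271654-132272772, from the promoter through the third exon), with its 3 TEAD core sites, was called in no line: its changes were -0.23 (SE 0.16, adjusted p = 0.366 by limma) in SCC1, -0.01 (SE 0.12, adjusted p = 0.969 by limma) in SCC6 and 0.04 (SE 0.12, adjusted p = 0.905 by limma) in SCC25. The signal in SCC1 was 350.3, 323 and 391 with cetuximab and 418 and 415 with PBS. All treated SCC1 libraries lay below the untreated ones, by an amount that did not pass the test. It passed in 1 of 16 alternatives, with the GC trend removed (-0.47, limma adjusted p = 0.0186). None of the other CCN2 regions was called in any line by limma, edgeR or DESeq2, and 1, in SCC6, had an unadjusted limma p under 0.05.

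The CCN1 promoter CCN1_r3 (chr1:86046252-86046496, over the first exon) was not called either, with changes of -0.30 in SCC1, 0.24 in SCC6 and 0.10 in SCC25 (limma adjusted p = 0.516, 0.474 and 0.926). Around it the direction went with the line on the deposited scale: none of the 4 CCN1 regions had a positive change in SCC1 and all 4 had one in SCC6, most without a call. The median change of all regions had the same signs (-0.09 in SCC1 and 0.11 in SCC6), and the signs were not counted under other scalings. CCN1_r1 (chr1:86037575-86037958, at -8.7 kb from the CCN1 start and within the gene DDAH1) fell in SCC1 from 252 and 181 with PBS to 143, 107 and 147 with cetuximab (log2 change -0.70, SE 0.21, adjusted p = 0.0161 by limma). In SCC6 the same region was 56.6, 78.9 and 55.5 with cetuximab and 47.1, 42.8 and 54.4 with PBS (log2 change 0.39, SE 0.23, adjusted p = 0.196 by limma). The groups were apart in both lines, in opposite order (limma interaction adjusted p = 0.0381, passed in 16 of 27 alternatives). The SCC1 call was held in 12 of 16 alternatives and lost with median centring, with the GC trend removed, by DESeq2 and without PBS replicate 1 (highest adjusted p = 0.53).

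CCN1_r4 (chr1:86064709-86065016), 18.4 kb from the CCN1 start and holding an AP-1 site, rose in SCC6. Its signal was 21.2, 35.3 and 36.7 with cetuximab and 1.21, 12.044 and 6.53 with PBS, from 21, 38 and 111 and 1, 18 and 6 reads, a log2 change of 2.38 (SE 0.47, adjusted p = 0.000154 by limma). A peak was called in 2 of 3 treated and 0 of 3 untreated libraries. In SCC1 it was open throughout (73.6, 83.7 and 59.5 against 85.9 and 90.4), and in SCC25 low throughout (2.81, 13.7 and 5.31 against 15.5, 17.3 and 3.39), with cetuximab first. The change in SCC6 was held in all 16 alternatives and differed between lines (limma interaction adjusted p = 0.0155), which was lost without SCC6 cetuximab replicate 3 or SCC6 PBS replicate 1 (highest adjusted p = 0.065).

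ANKRD1 had 1 call in SCC1 and 1 in SCC6. Upstream of the gene, ANKRD1_r2 (chr10:92690007-92690525) rose in SCC1, from 113 and 116 with PBS to 192, 181 and 169 with cetuximab (log2 change 0.65, SE 0.22, adjusted p = 0.0318 by limma), and was 39.4, 59.4 and 59.5 with cetuximab against 73.7, 64.2 and 60.9 with PBS in SCC6 (log2 change -0.34, SE 0.22, adjusted p = 0.242 by limma). The promoter ANKRD1_r3 (chr10:92680876-92681459) fell in SCC6, from 210.2, 185 and 184 to 151, 133 and 172 (log2 change -0.35, SE 0.13, adjusted p = 0.0361 by limma), and this call was held in 11 of 17 alternatives. In both cases the groups did not overlap in the line named. The SCC1 call at ANKRD1_r2 was held in 12 of 16 alternatives and lost without cetuximab replicate 1 or either PBS library. The SCC6 call at ANKRD1_r3 was lost in 6 alternatives. Among them were all libraries in 1 fit and leaving out cetuximab replicate 1 or 2 or PBS replicate 1 or 2. The promoter's changes in SCC1 (0.22) and SCC25 (0.22) were upward and did not pass (limma adjusted p = 0.498 and 0.638).

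**Figure D3:**
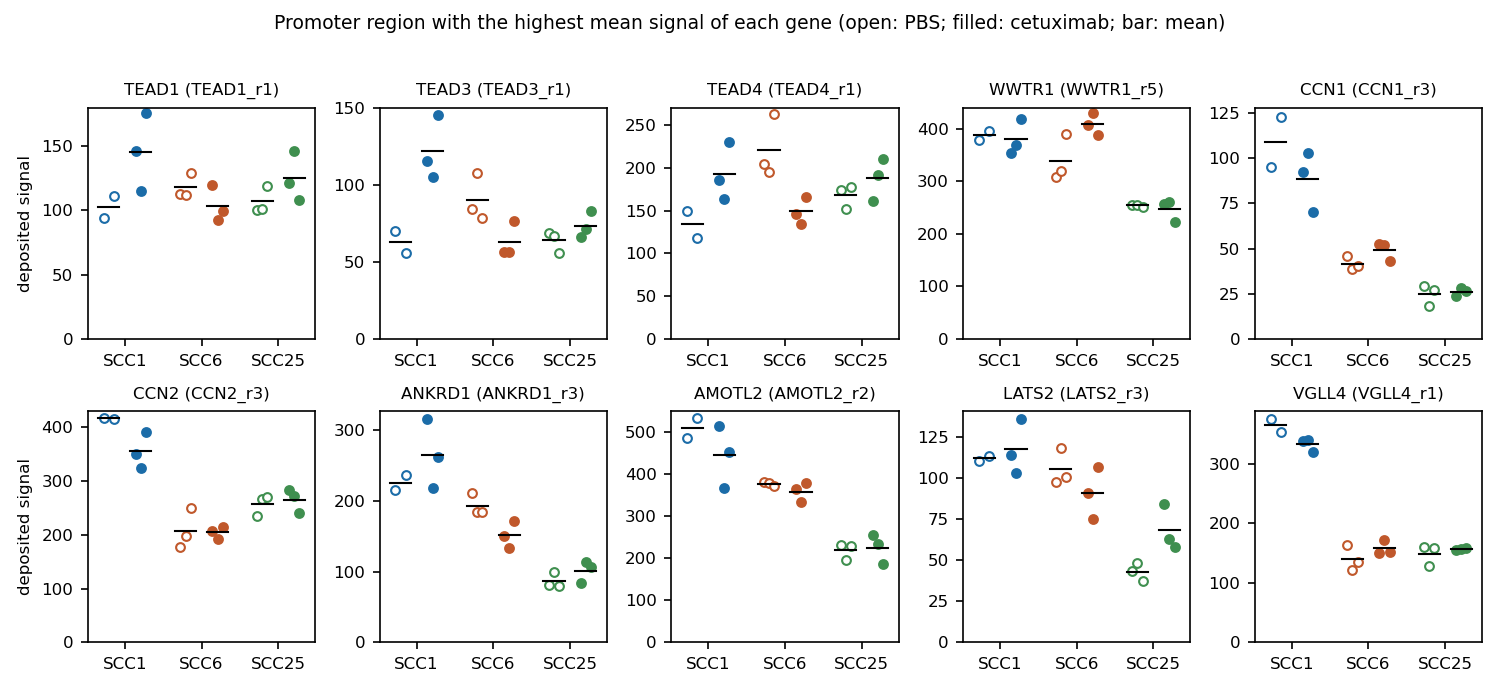
Deposited signal (y axis, from 0) of the strongest promoter region of each of the 10 genes in every library of SCC1, SCC6 and SCC25 (x axis); open points are PBS, filled points cetuximab, and bars group means. All treated libraries lie below the untreated ones in SCC6 at TEAD3_r1, TEAD4_r1 and ANKRD1_r3, and in SCC1 at CCN2_r3 and VGLL4_r1. They lie above the untreated ones in SCC1 at TEAD1_r1, TEAD3_r1 and TEAD4_r1, and in SCC25 at LATS2_r3. The share of all regions with such a separation was not computed. The lines differ more than the treatments at CCN1, CCN2, AMOTL2 and VGLL4.

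With all lines in one fit and the line as a covariate, 8 of 79 regions were called (10.1%; 12.2% of all regions tested). WWTR1_r2, WWTR1_r11 and VGLL4_r7 were the 3 higher (5.14% of all regions), and TEAD1_r3, TEAD1_r4, TEAD1_r18, WWTR1_r14 and WWTR1_r15 the 5 lower (7.04% of all regions). All 8 were at TEAD1, WWTR1 and VGLL4. The test of the interaction called 12 of 79 (15.2%; 13.2% of all regions), at TEAD1 (2), TEAD3 (3), TEAD4 (1), WWTR1 (1), CCN1 (2), ANKRD1 (1) and VGLL4 (2), and none at CCN2 (3 tested), AMOTL2 (9) or LATS2 (9), where 1 region each had an unadjusted p under 0.05.

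The lines themselves differed at these loci far more than the treatments did. Among PBS libraries, 43 of 77 regions tested differed between SCC6 and SCC1 (55.8%; 61.2% of all regions), 12 higher and 31 lower in SCC6. Between SCC25 and SCC1, 47 of 77 differed (61.0%; 51.3% of all regions), 13 higher and 34 lower in SCC25. Between SCC25 and SCC6, 46 of 77 differed (59.7%; 68.7% of all regions), 19 higher and 27 lower in SCC25. In the whole table, higher and lower calls were near balance for SCC6 against SCC1 (30.7% and 30.5%), and for SCC25 against SCC1 as for SCC25 against SCC6, higher calls were the more frequent (28.2% and 23.1%, and 36.7% and 32.1%). Median log2 differences of the members were -0.08, -0.38 and -0.14 in the same order, against -0.06, -0.04 and 0.06 over all regions. The comparisons share the PBS libraries of each line. The number of DNA copies of each locus was not measured in the lines, and its part in these differences of signal was not tested. Log2 differences against a near-empty group depend on the pseudocount.

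Most regions of the CCN genes were most open in SCC1. All 4 CCN1 regions and all 3 CCN2 regions tested were lower in SCC6 than in SCC1, and lower in SCC25 than in SCC1, under each of the 6 scalings and tests set side by side. The fourth CCN2 region, CCN2_r1, was too low over the PBS libraries to be tested between lines and went the other way. Its PBS signal was 21.7, 19.4 and 25.015 in SCC6 against 1.30 and 1.12 in SCC1 and 1.51, 0.721 and 0.848 in SCC25. At the CCN1 promoter the PBS signal was 95.0 and 123 in SCC1, 45.9, 38.8 and 40.2 in SCC6 and 29.4, 18.028 and 27.1 in SCC25. The lines did not overlap, and the log2 difference was -1.36 (SE 0.26, adjusted p = 0.000363 by limma) for SCC6 against SCC1, -2.10 (SE 0.26, adjusted p = 1.04e-05 by limma) for SCC25 against SCC1 and -0.75 (SE 0.24, adjusted p = 0.0108 by limma) for SCC25 against SCC6. CCN1_r4 fell further, from 85.9 and 90.4 in SCC1 to 1.21, 12.044 and 6.53 in SCC6 (log2 difference -3.89, SE 0.70, adjusted p = 0.000173 by limma). At the CCN2 promoter SCC1 stood above both other lines (418 and 415), and SCC25 (234, 267 and 269.8) was above SCC6 (176, 197 and 249) by 0.32 (SE 0.12, adjusted p = 0.0256 by limma) with overlapping libraries. The largest CCN2 difference was at CCN2_r2 (chr6:132275981-132276087), which holds a TEAD and an AP-1 match and lies at -3.5 kb from the start: 75.5 and 78.2 in SCC1, 4.83, 6.02 and 7.61 in SCC6 and 33.5, 26.7 and 38.2 in SCC25, with -3.46 (SE 0.34, adjusted p = 3.3e-07 by limma) for SCC6 against SCC1. Summed over the CCN1 regions, a description with no test, the PBS signal was 584 and 586 in SCC1, 173, 191 and 182 in SCC6 and 188, 155 and 182 in SCC25.

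AMOTL2 was least open in SCC25. All 8 regions tested were lower in SCC25 than in SCC1, and 7 of 8 lower than in SCC6, again under each of the 6 scalings and tests. At AMOTL2_r5 (chr3:134071124-134071479, downstream of the gene) the PBS signal was 147 and 179.8 in SCC1, 162, 142 and 148 in SCC6 and 33.2, 25.2 and 22.9 in SCC25, a log2 difference of -2.56 (SE 0.20, adjusted p = 8.67e-08 by limma) from SCC1 and -2.45 (SE 0.17, adjusted p = 6.26e-09 by limma) from SCC6. No SCC25 library reached those of the other lines. The neighbouring AMOTL2_r6 gave 312 and 270.2, 303, 268 and 315 and 86.3, 80.8 and 84.0 in SCC1, SCC6 and SCC25 (log2 difference -1.78, SE 0.13, adjusted p = 4.07e-08 by limma against SCC1, and log2 difference -1.81, SE 0.11, adjusted p = 1.32e-09 by limma against SCC6). At the AMOTL2 promoter the lines were ordered SCC1 (485 and 533), SCC6 (381, 380.1 and 371) and SCC25 (232, 195 and 229.9), each pair apart (limma adjusted p = 0.0017, 1.96e-07 and 1.41e-06). The exception was AMOTL2_r9 (chr3:134055942-134056418), 37.1 kb from the start and beyond the end of the gene, which was open in SCC1 alone: 354 and 304 in SCC1, 3.62, 8.70 and 4.35 in SCC6 and 20.3, 20.2 and 16.1 in SCC25. The log2 difference of -5.73 (SE 0.36, adjusted p = 3.37e-09 by limma) for SCC6 against SCC1 was the largest between lines at any member, and here SCC6 was below SCC25.

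LATS2 had its own pattern, with a different set of elements in each line. LATS2_r5, LATS2_r6 and LATS2_r7, in the first and second introns, were higher in SCC6 than in either other line. At LATS2_r7 (chr13:21608063-21608486) the PBS signal was 83.4, 75.6 and 77.2 in SCC6, 32.8, 18.028 and 25.4 in SCC25 and 1.30 and 2.23 in SCC1, where it rested on 1 and 2 reads, and the log2 difference was 4.87 (SE 0.36, adjusted p = 1.42e-08 by limma) for SCC6 against SCC1. The order was reversed at LATS2_r4 (chr13:21627496-21627683, in the first intron): 22.1 and 21.2 in SCC1 and 29.0, 28.1 and 28.8 in SCC25 against 1.21, 0.669 and 3.26 in SCC6 (log2 difference -3.18, SE 0.45, adjusted p = 1.93e-05 by limma for SCC6 against SCC1). LATS2_r9 was highest in SCC25, at 36.6, 36.1 and 37.3 against 5.20 and 4.47 in SCC1 (log2 difference 2.69, SE 0.47, adjusted p = 0.000196 by limma). The promoter itself was alike in SCC1 (111 and 114) and SCC6 (97.9, 118 and 101), whose libraries overlapped, and lower in SCC25 (43.3, 48.3 and 37.3; log2 difference -1.37, SE 0.19, adjusted p = 2.12e-05 by limma against SCC1).

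**Figure D4:**
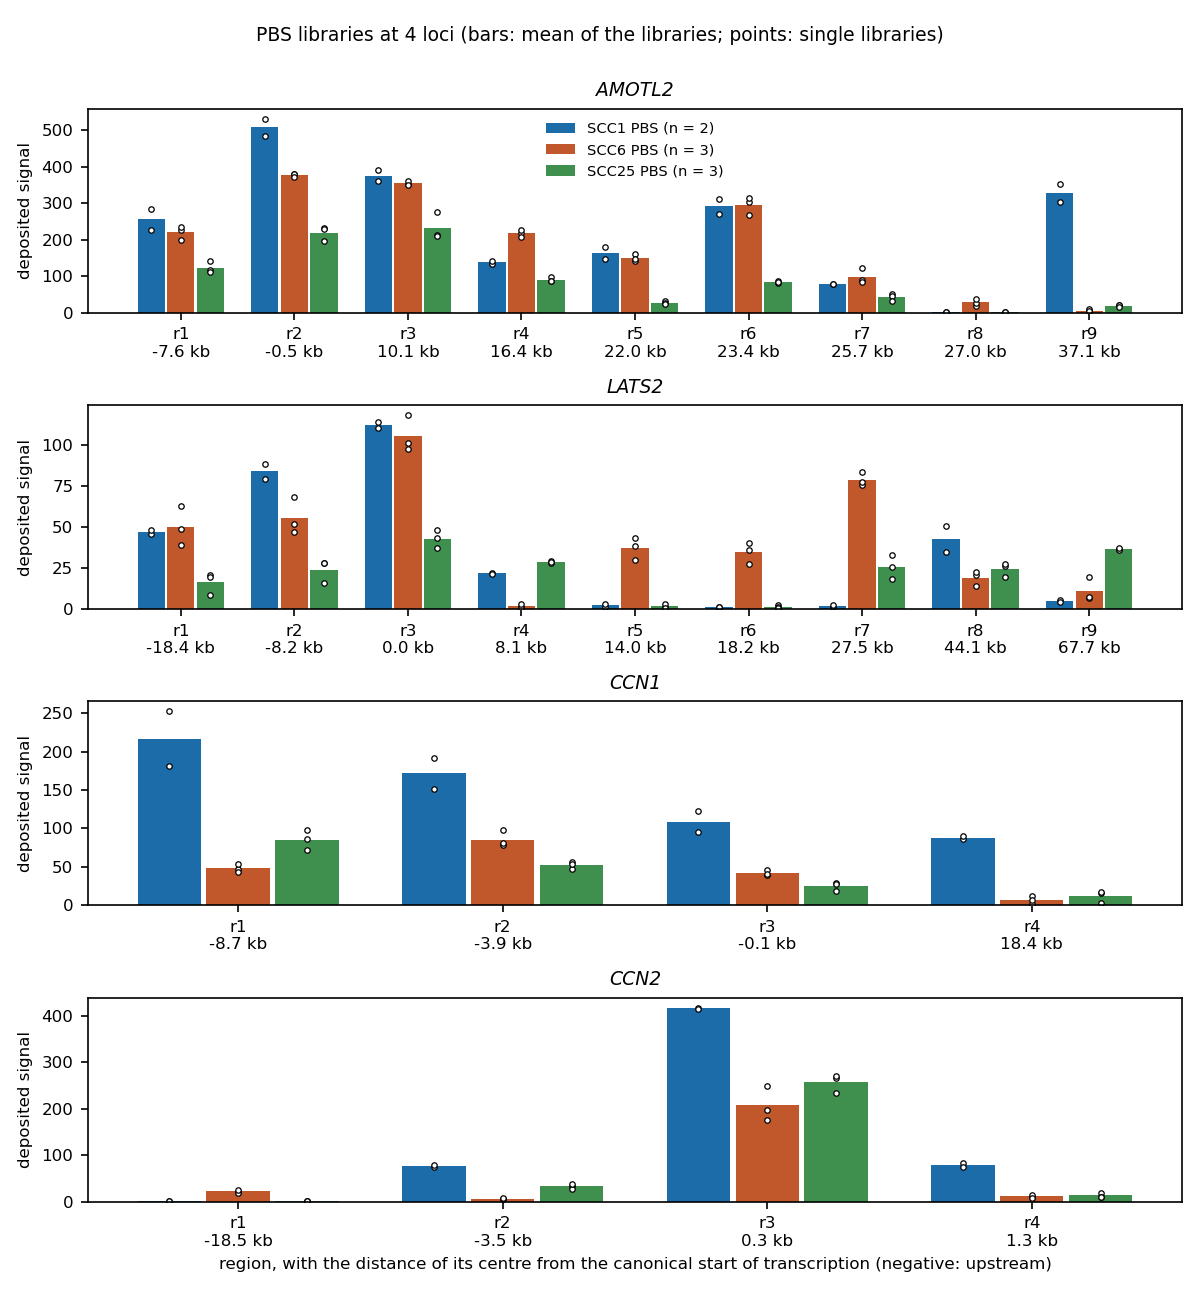
Deposited signal (y axis, from 0) of each region of AMOTL2, LATS2, CCN1 and CCN2 in PBS libraries, ordered by distance in kb from the start of the gene (x axis; negative is upstream); bars are means of 2 (SCC1) or 3 libraries and points single libraries. SCC1 bars are the tallest at every CCN1 region, SCC25 bars are low along AMOTL2, and AMOTL2_r9 is tall in SCC1 only.

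Of the factors and cofactors, VGLL4 was the most uniform: 7 of 8 regions were lower in SCC6 than in SCC1, and 5 lower and 1 higher in SCC25 than in SCC1. With the GC trend removed the first count was 5 lower and 1 higher. At VGLL4_r1 the PBS signal was 376 and 353 in SCC1, 163, 122 and 135 in SCC6 and 161, 128 and 159 in SCC25, so that SCC1 stood apart (log2 difference -1.38, SE 0.15, adjusted p = 8.2e-07 by limma for SCC6 and -1.29 (SE 0.15, adjusted p = 4.11e-06 by limma) for SCC25) and the other lines overlapped. WWTR1 was mixed, with 5 higher and 2 lower regions of 15 in SCC6 against SCC1. The intronic WWTR1_r7 (chr3:149343242-149343849) was most open in SCC25, at 114, 107 and 117 in SCC25, 8.46, 4.68 and 3.26 in SCC6 and 18.2 and 20.1 in SCC1 (log2 difference 4.22, SE 0.32, adjusted p = 1.46e-08 by limma for SCC25 against SCC6). The main WWTR1 promoter was lower in SCC25 (255, 255 and 252) than in SCC1 (379 and 396; log2 difference -0.61, SE 0.11, adjusted p = 0.00025 by limma).

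Among the TEAD genes, the TEAD1 promoter passed in no pair of lines (93.7 and 111 in SCC1, 112, 112 and 128 in SCC6 and 100.2, 101 and 119 in SCC25). Of 18 TEAD1 regions tested, 9 were lower and 1 higher in SCC6 than in SCC1, all in introns, and with the GC trend removed 6 were lower and 5 higher. Among them TEAD1_r12 gave 1.21, 3.35 and 7.61 in SCC6 against 71.6 and 50.2 in SCC1 (log2 difference -3.81, SE 0.53, adjusted p = 1.36e-05 by limma). The TEAD4 promoter was higher in SCC6 (204, 195 and 263) than in SCC1 (149.6 and 118; log2 difference 0.71, SE 0.15, adjusted p = 0.00091 by limma), and TEAD4_r2, in the third intron, was higher in SCC25 (65.2, 51.2 and 55.1) than in SCC6 (6.04, 4.68 and 2.1752; log2 difference 3.53, SE 0.39, adjusted p = 8.44e-07 by limma). All 3 TEAD3 regions were lower in SCC25 than in SCC6 (1 of 3 with the GC trend removed), the promoter with 68.6, 67.1 and 56.0 in SCC25 against 84.6, 108 and 78.3 in SCC6 (log2 difference -0.48, SE 0.18, adjusted p = 0.0283 by limma). At ANKRD1 the promoter was lower in SCC25 (81.4, 99.5 and 79.7) than in SCC1 (215 and 236; log2 difference -1.37, SE 0.14, adjusted p = 1.85e-06 by limma) and in SCC6 (210.2, 185 and 184; log2 difference -1.15, SE 0.13, adjusted p = 1.03e-06 by limma), with no overlap.

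The promoters of 19 further genes of the cascade and its cofactors were read from the same fits. Shares of all regions are printed beside their counts, but only 18203 of 115087 regions lay at promoters. The share called among all promoters was not computed, and the part of base composition was not tested. In SCC1, 4 of 19 were called (21.1%, against 11.1% of all regions). All 4 were higher with cetuximab (4.58% of all regions were called higher). They were NF2, the upstream regulator merlin (log2 change 0.85, limma adjusted p = 0.000184), STK4 (0.85, limma adjusted p = 0.00816), TAOK1, a kinase that acts on the upper kinases (1.27, limma adjusted p = 2.34e-05), and AJUBA, which inhibits LATS kinases (1.14, limma adjusted p = 0.000303). AJUBA and TAOK1 were called in all 16 alternatives and NF2 in 15, lost without PBS replicate 1. STK4 was called in 13, lost with the GC trend removed, without cetuximab replicate 1 and without PBS replicate 3. AMOT had the largest log2 change of the 19 in SCC1, -1.41 (SE 0.5, adjusted p = 0.05 by limma), and was not called. With the GC trend removed, 1 of the 19 was called lower in SCC1, beside 3 higher. A single lower call also came by edgeR, with pseudocount 5, with the 50% lowest left out and with all libraries in 1 fit. In SCC6, 5 of 19 were called (26.3%; 27.5% of all regions): AJUBA (0.47) and VGLL3 (0.38) were higher and STK3 (-0.44), YAP1 (-0.20) and TEAD2 (-0.52) lower. With the GC trend removed STK3 and YAP1 were no longer called, and with median centring AJUBA and VGLL3 were not. Over all lines together 3 of 19 were called (15.8%, against 12.2% of all regions). YAP1 was lower there, with a log2 change of -0.23 (SE 0.06, adjusted p = 0.0165 by limma), and AJUBA (0.64) and VGLL3 (0.31) were higher. The YAP1 call was lost with median centring and by DESeq2. The effect differed between lines at 6 of 19 (31.6%, against 13.2% of all regions), namely NF2, STK3, STK4, AMOT, TAOK1 and TEAD2. Of these, NF2 and AMOT passed in all 27 alternatives and the other 4 were lost with the GC trend removed, which left 2 of 19 (10.5%). In SCC25 none of the 18 tested was called, and 1 had an unadjusted limma p under 0.05. Of 16 further TEAD target genes, 15 had a promoter region. In SCC1 ARHGEF17 was higher (0.76; 1 of 15, 6.67%), lost without cetuximab replicate 1 or 3 or PBS replicate 3. In SCC6 CRIM1 was higher (0.90) and MYOF (-0.80), AXL (-0.37) and GADD45A (-0.39) lower (4 of 15, 26.7%, close to the 27.5% of all regions). CRIM1 and GADD45A were called in all 17 alternatives, MYOF in 15 and AXL in 9. In SCC25 none was called by limma, with 4 at an unadjusted limma p under 0.05, and edgeR called 1 higher. For AXL in treated SCC6 the paper reports the other direction, a promoter that became more accessible. It used DiffBind and does not say which AXL region it read, and the reason for the difference was not tested.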

How the data were processed

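ATAC-seq libraries of 3 HNSCC lines, 17 in all, were analysed. Per the paper's methods and the processing notes, the authors trimmed reads with Trim Galore 0.5.0, aligned them to hg19 with Bowtie2 2.3.2, removed duplicates and mitochondrial reads with Picard 2.18, filtered with SAMtools 1.9, and used MACS2 for broad peaks per library and DiffBind to join them into a common region set (DiffBind's version and cutoffs are not given in the sources used here). The deposited signal was found to be whole reads per region, multiplied by 1 step for each library and with 0 replaced by 1 (all values, 100%, were whole within 0.001), so that a region without reads keeps a small value and low regions are uncertain. The deposited peak files give fold enrichment and −log10 p- and q-values, of which only the presence of a peak over a region entered the text.

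Regions were assigned to genes with GENCODE release 44 lifted to GRCh37 (promoter: within 1 kb of an annotated start site). Per comparison, log2(signal + 1) of the regions left after dropping the 25% lowest in mean entered limma 3.58.1 (R 4.3.3, trended and robust moderation), with Benjamini-Hochberg adjustment over all regions tested and a threshold of 0.05. Lines were fitted separately. The fit over all lines and its interaction used every library, and lines were compared among PBS libraries. As alternatives, the recovered reads were given to edgeR 4.0.16 and DESeq2 1.42.0, beside other scalings, pseudocounts, filters, gene windows and libraries left out. Removal of the GC trend (50 bins) was added later. Scripts ran in Python 3.11.15 with numpy 2.4.6, pandas 2.3.3 and matplotlib 3.10.9, and the tests were checked on simulated data.

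Regions were named by rule: the strongest promoter of each gene, the 2 higher and 2 lower called regions of smallest adjusted p in each line whose groups did not overlap, 2 and 2 over all lines with 1 direction in each line, the 3 of smallest interaction p, and 2 for each pair of lines. Other regions named were chosen after their values were seen. Members and lists were chosen with earlier results of these data known. The marker lists and the pathway lists were read at promoter regions only.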

Additional observations from a re-analysis of the deposited data

Results flagged for a closer look

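The effect of cetuximab differed between the 3 lines, by a limma interaction test, at 12 member regions. In the following, log2 changes are given for SCC1, SCC6 and SCC25 in that order. At TEAD3 they were 0.94, -0.51 and 0.20 for TEAD3_r1 (adjusted p = 0.00478), 0.55, -0.10 and -0.04 for TEAD3_r2 (adjusted p = 0.0346) and 1.04, -0.37 and 0.48 for TEAD3_r3 (adjusted p = 0.00225). For TEAD4_r1 they were 0.52, -0.56 and 0.16 (adjusted p = 0.00524). TEAD1 had TEAD1_r10 with 0.32, 0.66 and -0.40 (adjusted p = 0.039) and TEAD1_r19 with 0.39, 2.37 and -0.19 (adjusted p = 0.00235).

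WWTR1_r15 had -1.27, -0.24 and -0.42 (adjusted p = 0.0258). At CCN1 the changes were -0.70, 0.39 and -0.47 for CCN1_r1 (adjusted p = 0.0381) and -0.30, 2.38 and -0.64 for CCN1_r4 (adjusted p = 0.0155). For ANKRD1_r2 they were 0.65, -0.34 and 0.13 (adjusted p = 0.0393). At VGLL4 they were -0.70, 0.54 and -0.05 for VGLL4_r6 (adjusted p = 0.0318) and 0.02, 3.52 and 0.80 for VGLL4_r7 (adjusted p = 0.000246). TEAD1_r19, TEAD3_r3 and VGLL4_r7 passed this test in each of the 27 alternatives run. TEAD3_r1 and TEAD4_r1 passed in 26, lost with the GC trend removed, CCN1_r4 in 25, WWTR1_r15 in 22, VGLL4_r6 in 20, ANKRD1_r2 in 18, TEAD3_r2 in 17, CCN1_r1 in 16 and TEAD1_r10 in 14. No group had 4 or more libraries, so single libraries were not tested as outliers.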

How the results depend on the processing

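The calls between lines were the most stable and the calls with cetuximab the least, where the number of calls depended on the scaling. With median centring the member regions called were 7 higher and 2 lower in SCC1, 16 lower in SCC6 and 3 lower over all lines, and with quantile normalisation 10 were lower in SCC6. With all libraries in 1 fit, 8 were higher in SCC1 and 1 lower in SCC6. By DESeq2, 2 were lower in SCC1 and 5 higher over all lines, and with the GC trend removed 3 were lower over all lines. With only the gene body as window, 1 was higher in SCC1, 3 lower in SCC6 and 7 called for the interaction. With 50 kb on both sides more regions entered, and 7 higher and 8 lower were called in SCC1, 22 higher in SCC6, 7 higher and 8 lower over all lines, and 69, 73 and 70 between PBS libraries of SCC6 and SCC1, SCC25 and SCC1, and SCC25 and SCC6. Leaving out 1 library at a time gave 0 to 6 higher and 1 to 5 lower in SCC1, 7 to 10 higher and 2 to 9 lower in SCC6, 0 in SCC25, 2 to 4 higher and 3 to 7 lower over all lines, 7 to 14 for the interaction, and 40 to 44, 43 to 49 and 43 to 47 between lines. The fewest in SCC1 came without PBS replicate 1 (0 higher, 1 lower), in SCC6 without cetuximab replicate 2 or PBS replicate 2 (2 lower), over all lines without any 1 of SCC1 cetuximab 2, SCC1 PBS 1, SCC6 cetuximab 1, SCC6 PBS 1, SCC6 PBS 3, SCC25 cetuximab 1 and SCC25 PBS 1 (3 lower), and for the interaction without SCC1 PBS replicate 1 or SCC6 PBS replicate 1 (7). Where a SCC1 PBS library was left out, the lone library was assumed to vary like the treated ones. The cause was not tested, except that the 50 kb and gene-body windows hold more and fewer regions.

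The libraries share replicate numbers across treatments, but the numbers did not pair them: the correlation of same-numbered libraries' deviations from their group means ran from -0.042 to 0.0265. With the replicate number as a replicate block, 1 region was called higher and 1 lower over all lines (TEAD1_r18 and VGLL4_r7 among the regions named), 6 higher and 5 lower in SCC1, 9 higher and 7 lower in SCC6, and WWTR1_r11, WWTR1_r14 and WWTR1_r15 had limma adjusted p = 0.0712, 0.0589 and 0.0523 over all lines. The interaction was lost with the block at WWTR1_r15, CCN1_r1 and ANKRD1_r2, and the YAP1 and VGLL3 promoters were then not called over all lines.

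Changes that reversed their sign were all at promoters that were not called. In SCC1, WWTR1_r5 was 0.16 with median centring, 0.04 by edgeR, 0.07 by DESeq2 and -0.10 to 0.02 with 1 library left out (0.01 without PBS replicate 3), VGLL4_r1 was 0.06 with median centring and 0.03 with the GC trend removed, and LATS2_r3 was -0.21 with the GC trend removed and -0.05 to 0.15 with 1 library left out. In SCC6, CCN2_r3 was 0.02 with quantile normalisation, 0.10 with the GC trend removed and -0.12 to 0.13 with 1 library left out (0.04 without cetuximab replicate 2), and AMOTL2_r2 was 0.02 with the GC trend removed. In SCC25, WWTR1_r5 was 0.04 with median centring, 0.03 with quantile normalisation, 0.04 by edgeR, 0.05 by DESeq2 and -0.08 to 0.03 with 1 library left out, AMOTL2_r2 was -0.06 to 0.16 with 1 library left out (-0.01 without cetuximab replicate 2 and -0.05 without PBS replicate 2), and with 1 library left out CCN2_r3 ran from -0.02 to 0.11 (-0.002 without cetuximab replicate 1), CCN1_r3 from -0.11 to 0.23 and VGLL4_r1 from -0.02 to 0.14. Of the other values of named regions under alternatives, 825 kept their direction and side of the threshold, 32 lost the call and 11 gained one. Reads limit what low regions can show: a library with no read and one with a single read have the same value.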
